A study of Mus musculus with 6 samples.

Results

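The Schlafen genes are a family of interferon-regulated genes that lie side by side on mouse chromosome 11. The 7 members described here, Slfn1, Slfn2, Slfn3, Slfn4, Slfn5, Slfn8 and Slfn9, were the rows of the deposited count table that carry these gene symbols, 7 of 23282 rows. They were measured by RNA-seq in TC-1, a mouse line labelled as lung adenocarcinoma that was made by putting papillomavirus oncogenes and an activated ras gene into lung cells. Both groups were grown in the same serum-containing medium for 72 h: 3 libraries came from untreated cells and 3 from cells given murine recombinant interferon-gamma (IFN-gamma) at 20 ng/ml for that time. Both groups are the same single line, and the labels name no genetic change in either. Whether the 3 replicates of a group were separate cultures is not stated in the labels, and p-values therefore measure only how far these samples spread, which may be technical.

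Schlafen proteins restrain cell growth and virus replication, and several act on tRNA. The mouse proteins fall into a short class (Slfn1 and Slfn2), an intermediate class (Slfn3 and Slfn4) and a long class with a helicase-like end (Slfn5, Slfn8 and Slfn9). Human SLFN11, a long member, cleaves tRNAs and lowers protein synthesis in cells with damaged DNA or with a retrovirus, and mouse Slfn2 keeps T cells quiescent and shields tRNAs from cleavage. The family is best known from lymphocytes and myeloid cells, and interferons raise several of its members there.

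After IFN-gamma, 4 of the 5 Schlafen genes with enough reads to test rose and none fell. Slfn4, 1 of these 4, entered the test only through its treated libraries, so its direction was set by the filter on low counts and its call adds nothing to the count. Slfn8 and Slfn2 rose 15.6-fold and 13-fold, Slfn4 went from 2 reads in all untreated libraries to 109 in the treated ones, and Slfn9 rose 1.73-fold. Slfn5 did not pass the test, and Slfn1 and Slfn3 had too few reads to be tested in either group. Over all 12191 genes tested with edgeR's quasi-likelihood test (adjusted p under 0.05), 17.4% passed, 9.88% being higher and 7.56% lower. Where upper-quartile factors or unscaled totals replaced edgeR's TMM scaling, 41.6% and 44.5% of all calls were higher, against 56.6% with TMM, while the same number of Schlafen genes, 4, was higher under each. In bulk RNA, more expressing cells and more RNA per cell cannot be told apart.

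The start regions of these genes were compared first, because interferon acts on promoters through short DNA elements. IFN-gamma signalling acts through the GAS element, written here as TTCNNNGAA, and interferon regulatory factors such as IRF9 and IRF1 bind ISRE-type elements, taken here as GAAA, any 2 bases and GAAA again. Both were searched on both strands from 250 bases before to 50 bases after each start in the RefSeq promoters of build GRCm38.p6, where all 7 members had an entry. Of 32851 such promoters in the genome 3.44% held the ISRE letters and 8.3% the GAS letters. Slfn5, Slfn8 and Slfn9 held 1 ISRE match each, no member held a GAS match, and so no ISRE match overlapped one. The following sequences show the promoters of Slfn8, Slfn9, Slfn5 and Slfn2. Those of Slfn8 and Slfn9 resemble each other, and these genes changed by different amounts. The Slfn5 promoter has its match in an A-rich run, and its gene did not pass the test. The Slfn2 promoter has none of these letters, and its gene rose. Whether the letters bear on the changes was not tested. Capitals mark the ISRE match.
Slfn8 (minus strand, chr11:83020761-83021060): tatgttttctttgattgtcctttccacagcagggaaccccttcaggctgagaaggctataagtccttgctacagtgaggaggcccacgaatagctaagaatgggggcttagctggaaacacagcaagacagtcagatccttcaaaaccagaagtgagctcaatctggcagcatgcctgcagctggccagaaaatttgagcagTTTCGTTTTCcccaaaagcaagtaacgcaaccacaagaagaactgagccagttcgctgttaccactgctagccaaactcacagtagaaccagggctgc
Slfn9 (minus strand, chr11:82991781-82992080): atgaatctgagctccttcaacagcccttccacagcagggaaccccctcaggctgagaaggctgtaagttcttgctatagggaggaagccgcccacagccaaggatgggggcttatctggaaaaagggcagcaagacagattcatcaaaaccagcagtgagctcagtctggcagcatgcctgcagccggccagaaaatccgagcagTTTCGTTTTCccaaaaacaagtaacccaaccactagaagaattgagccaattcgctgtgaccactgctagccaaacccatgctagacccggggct
Slfn5 (plus strand, chr11:82951852-82952151): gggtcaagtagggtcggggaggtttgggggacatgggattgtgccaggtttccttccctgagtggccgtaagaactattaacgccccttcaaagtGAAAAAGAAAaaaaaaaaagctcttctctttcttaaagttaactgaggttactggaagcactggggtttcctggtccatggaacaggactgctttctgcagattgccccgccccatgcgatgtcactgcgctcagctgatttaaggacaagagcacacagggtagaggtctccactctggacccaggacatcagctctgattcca
Slfn2 (plus strand, chr11:83064862-83065161): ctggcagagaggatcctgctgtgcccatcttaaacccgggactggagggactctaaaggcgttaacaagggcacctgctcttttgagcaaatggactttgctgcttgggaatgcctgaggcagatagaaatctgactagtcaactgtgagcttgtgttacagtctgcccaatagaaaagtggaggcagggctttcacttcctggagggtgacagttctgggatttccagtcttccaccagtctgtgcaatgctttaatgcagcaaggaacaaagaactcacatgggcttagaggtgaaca

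The match in Slfn8 and in Slfn9 was the same 10 bases, TTTCGTTTTC, which is the ISRE pattern read on the other strand. It began at position -48 from the start in the Slfn8 entry shown and at -45 in Slfn9, where position 1 is the first transcribed base. RefSeq holds 2 start entries for Slfn8, and in the other the same match lies at -136. Aligned over 295 bases, the Slfn8 and Slfn9 promoters shown were 83.4% identical. The Slfn5 match, GAAAAAGAAA, began at -155. These matches describe letters in a fixed window. Binding was not measured in these samples.

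Slfn2, the short Schlafen gene whose loss of function ends T cell quiescence in mice, was low in untreated cells and rose strongly. Its level, as counts relative to library size after TMM scaling (CPM, scaled to 1e6), was 4.49, 3.66 and 4.39 in the 3 untreated replicates and 53.9, 59.2 and 51.7 in the 3 treated ones, each in the order of their numbers. All treated libraries lay far above all untreated ones, and the spread within each group was small. The group means were 4.18 ± 0.451 and 54.9 ± 3.84 CPM (SD, n = 3), a log2 fold change of 3.70 ± 0.16 (standard error; edgeR adjusted p = 8.82e-23, 95% interval 10.5-fold to 16.2-fold). It ranked 68 among the 12191 tested genes by log2 fold change. Slfn1, the other short member, which slows growth when overexpressed in thymocytes and fibroblasts, had 0 reads in 5 libraries and 2 reads in IFN-gamma replicate 1. The 0 reads of the untreated group allow a level of up to 0.114 CPM, the library with 2 reads stood at 0.186 CPM, and the gene was not tested.

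Slfn4, an intermediate member known from monocytes, macrophages and myeloid cells of the inflamed stomach, was close to absent without IFN-gamma. Untreated replicates 1, 2 and 3 held 0, 0 and 2 reads, and IFN-gamma replicates 1, 2 and 3 held 46, 16 and 47 reads, or 4.28, 1.78 and 5.57 CPM. The groups did not overlap, but in proportion to their mean the treated libraries (3.88 ± 1.92 CPM, SD, n = 3) varied more than those of Slfn2 or Slfn8. The ratio of group counts, scaled for library size, was 50.9, with an exact 95% interval of 13.8 to 426 that covers counting error only. The fitted log2 fold change was 5.44 ± 0.78 (edgeR adjusted p = 7.24e-07), rank 31 of all tested genes. Both untreated reads came from untreated replicate 3. Without that library the fitted value was 8.13, and the count ratio was 21.6 if 3 counts are taken for the untreated group. The exact 95% lower bound of that ratio, from the 0 untreated reads left, was 17.2. Slfn4 passed the filter on low counts only through its treated libraries, so that a member with this pattern had to differ.

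Slfn3, the second intermediate member, known in rat gut for a link to epithelial differentiation, had 2, 0 and 0 reads in untreated and 5, 1 and 5 reads in IFN-gamma libraries. The treated range began below the highest untreated library, so the groups overlapped. The count ratio was 5.14 (exact 95% interval 1.12 to 47.7, counting error only), and with no filter on low counts the gene did not pass (edgeR adjusted p = 0.417). Without untreated replicate 1, which held both untreated reads, the ratio was 2.21 if 3 counts are taken for the untreated group. The exact 95% lower bound of that ratio, from the 0 untreated reads left, was 1.51. Without untreated replicate 2 or 3, or without IFN-gamma replicate 1 or 3, the interval of the ratio reached below 1 (lower bounds 0.807, 0.713, 0.81 and 0.715). Slfn3 and Slfn4 are close copies, 91.6% identical over 1782 aligned coding bases, and 21.8% of the 50-base windows of the longest annotated Slfn3 transcript also occur in transcripts of other genes, most often of Slfn4. How reads from such stretches were assigned is not given in the sources used here, so how reads divide between these copies is uncertain. Summed into 1 row, Slfn3 and Slfn4 were higher by 4.70 ± 0.67 on the log2 scale (edgeR adjusted p = 7.48e-07). Like Slfn4 alone, this row passed the filter on low counts only through its treated libraries. Its direction was thus set in advance, and most of its reads were those of Slfn4.

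**Figure D1:**
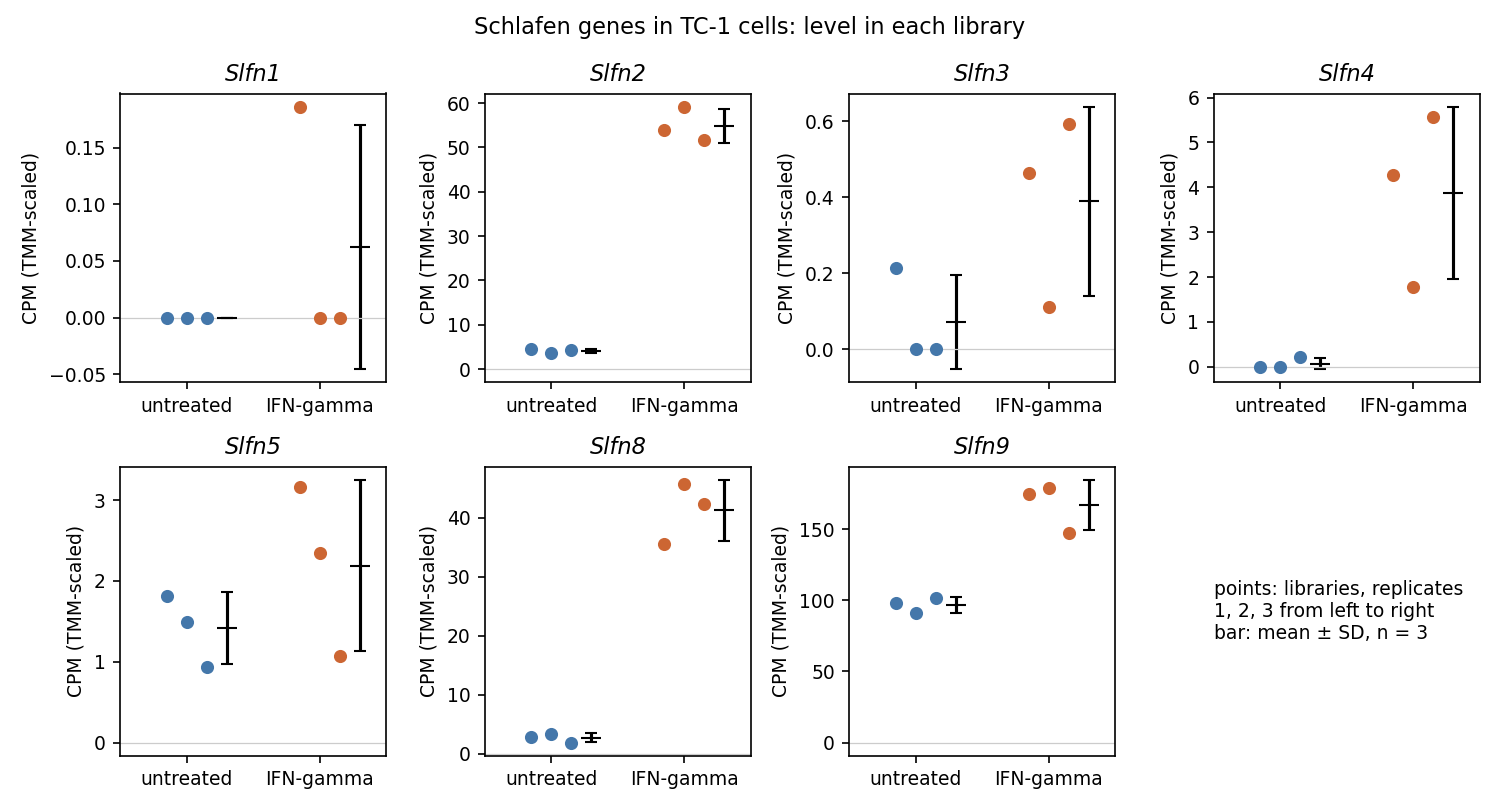
Level of each Schlafen gene in each library, in TMM-scaled CPM on linear axes that differ between panels; points are libraries (blue untreated, orange IFN-gamma) and bars are means ± SD of 3 libraries. The treated points of Slfn2, Slfn4, Slfn8 and Slfn9 lie above all untreated points, those of Slfn5 overlap, and Slfn1 and Slfn3 reach at most 0.592 CPM.

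Slfn8, a long member and the closest to Slfn9 in coding sequence among the Schlafen genes compared, was scarce in untreated cells and rose strongly. It stood at 2.78, 3.39 and 1.88 CPM in untreated replicates 1, 2 and 3 and at 35.6, 45.7 and 42.4 CPM in IFN-gamma replicates 1, 2 and 3. The groups lay far apart. The means were 2.68 ± 0.761 and 41.2 ± 5.14 CPM, and the log2 fold change was 3.96 ± 0.19 (edgeR adjusted p = 1.54e-20, 95% interval 11.9-fold to 20.4-fold), rank 57 of all tested genes.

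Slfn9, a long member like Slfn8, gave the most reads of the family in untreated TC-1 cells, counted without correction for length. Untreated replicates 1, 2 and 3 gave 915, 669 and 972 reads, or 97.8, 90.8 and 102 CPM. After IFN-gamma, replicates 1, 2 and 3 stood at 174.9, 179.2 and 147.2 CPM. The groups did not overlap, with IFN-gamma replicate 3 the lowest of the treated libraries. The log2 fold change was 0.79 ± 0.08 (edgeR adjusted p = 8.61e-11), which is 1.73-fold with a 95% interval of 1.55-fold to 1.92-fold, rank 470 of all tested genes.

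Slfn5, a long member found in the nucleus, was scarce in both groups. It stood at 1.82, 1.49 and 0.940 CPM in untreated replicates 1, 2 and 3 and at 3.16, 2.34 and 1.07 CPM in IFN-gamma replicates 1, 2 and 3. IFN-gamma replicate 3 lay inside the untreated range, so the groups overlapped. The log2 fold change was 0.65 ± 0.50 (edgeR adjusted p = 0.422), and its 95% interval of 0.781-fold to 3.15-fold leaves room for no change and for a rise larger than that of Slfn9. The summed reads, 37 untreated and 64 treated, gave a scaled ratio of 1.61 whose exact 95% interval, 1.06 to 2.49, covers counting error only and lies above 1. The edgeR interval also holds the spread between libraries and includes no change. Of the 5 tested members, Slfn5 was the only one whose groups overlapped, while treated libraries lay wholly above untreated ones for 16.2% of all tested genes. Slfn4 passed the filter on low counts only through its treated libraries, so its lack of overlap adds nothing to this comparison.

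**Figure D2:**
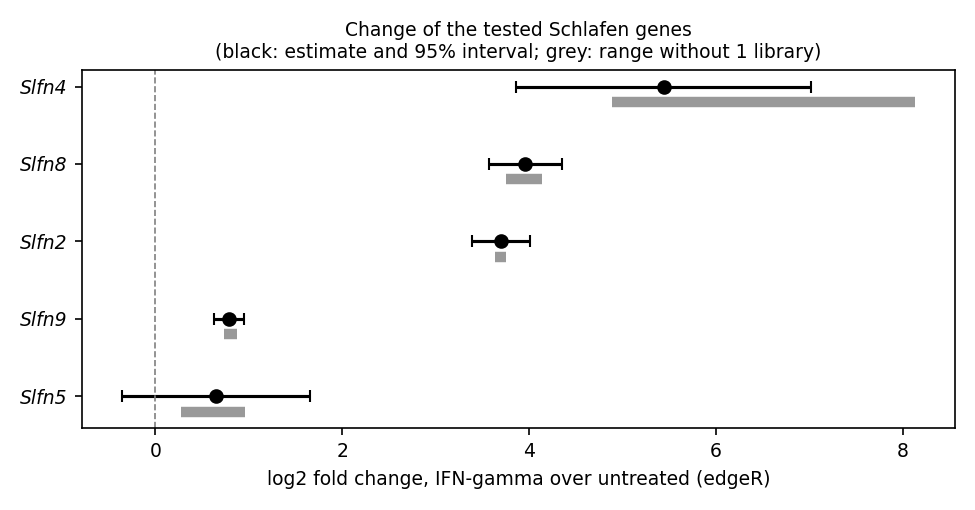
Log2 fold change (IFN-gamma over untreated, edgeR) of the 5 tested Schlafen genes, with the 95% interval in black and, in grey, the range of estimates when 1 of the 6 libraries is left out. Slfn2 sits at 3.70, Slfn8 at 3.96 and Slfn9 at 0.79 with a narrow interval, Slfn5 has an interval across 0, and the grey bar of Slfn4 reaches 8.13.

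Slfn8 and Slfn9 are close copies with unlike changes. Their coding sequences have the same length, 2733 bases, and are 92.7% identical. The number of Slfn8 reads relative to Slfn9 reads was compared within each library, which needs no scaling between libraries. On the log2 scale this ratio was -5.11, -4.71 and -5.72 in the untreated replicates, in their order, and -2.29, -1.97 and -1.79 in the treated ones. The ratio was thus higher in every treated library, by 3.16 on average (two-sided exact permutation p = 0.1, the smallest that 3 against 3 libraries can give; adjusted p = 0.167 over the 10 pairs of tested members). The Slfn2 to Slfn9 ratio moved by 2.92 with no overlap of the groups (exact permutation p = 0.1, adjusted p = 0.167), whereas the Slfn2 to Slfn8 ratio overlapped between groups (difference -0.24, exact permutation p = 0.6).

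**Figure D3:**
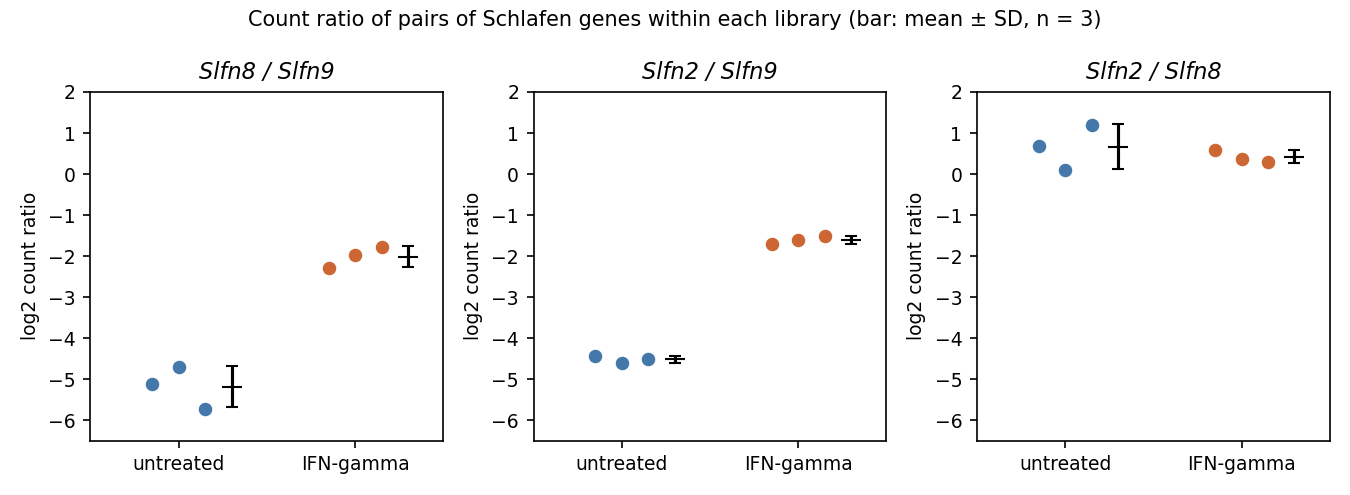
Log2 ratio of read counts between pairs of Schlafen genes within each library, with the mean ± SD of 3 libraries. The Slfn8 to Slfn9 and Slfn2 to Slfn9 ratios of treated libraries (orange) lie above those of untreated libraries (blue), while the Slfn2 to Slfn8 ratios overlap.

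The close likeness limits how finely reads can be divided. Of the 50-base windows of the longest annotated transcripts, 15.4% of those of Slfn8 and 11.4% of those of Slfn9 also occur in a transcript of another gene, in both cases most often Slfn10-ps, which lies between Slfn8 and Slfn2. In the last 500 bases, which a 3' kit would read, the shares were 3.1% and 0%. With Slfn8 and Slfn9 summed into 1 row, the pair rose by 1.07 ± 0.07 on the log2 scale (edgeR adjusted p = 1.78e-15), a value set mostly by the more numerous Slfn9 reads. For Slfn2, 4.27% of windows were shared, and for Slfn1 0.606%.

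Treatment changed the make-up of the family's reads. All 7 genes together held 107, 99.3 and 109 CPM in the untreated replicates, in their order, and 272.5, 288 and 249 CPM in the treated ones. Slfn9 took between 91.3% and 93.2% of these reads in untreated libraries and between 59.2% and 64.2% in treated ones. Slfn2 went from between 3.69% and 4.19% to between 19.8% and 20.8%, and Slfn8 from between 1.73% and 3.42% to between 13.1% and 17.1%. None of these ranges overlapped between the groups. These are shares of reads and not of molecules: the labels name both a kit that reads whole transcripts and one that reads 3' ends, so a correction for length could not be chosen and no order of levels between the genes is given.

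Of 4 relatives of the family outside the 7 members, 1 had enough reads to test. Slfn10-ps, annotated as a pseudogene by its name, stood at 1.60, 1.90 and 2.40 CPM in untreated replicates 1, 2 and 3 and at 3.91, 5.24 and 6.75 CPM in IFN-gamma replicates 1, 2 and 3. Its groups did not overlap, and it rose by 1.41 ± 0.37 on the log2 scale (edgeR adjusted p = 0.00518). With 19.7% of its windows shared, the division of reads between it and the other Schlafen genes is uncertain. Slfn14, a long member known from platelets and red cell precursors, had 1 read in 1 untreated library, and Slfn5os, a non-coding gene that overlaps Slfn5, and Slfnl1, a relative on another chromosome, had 0 reads in all 6 libraries.

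Among genes that flank the cluster, calls were about as frequent as in the whole table, where 9.88% were higher. Of the 10 nearest protein-coding genes on each side in the RefSeq order, 9 of 20 had enough reads to test, 1 was higher and 0 were lower, with a median log2 fold change of 0.03, against -0.01 over all tested genes. The gene that rose was the chemokine gene Ccl5, the ninth on one side, at 85.4 ± 4.94 CPM untreated and 135 ± 7 CPM treated (log2 fold change 0.66 ± 0.08, edgeR adjusted p = 6.78e-09). Nle1, the gene of a ribosome assembly factor near one end of the cluster, had -0.01 ± 0.24 (edgeR adjusted p = 0.982). The genes Ap2b1, Lig3 and Rad51d, which serve endocytosis and DNA repair, did not pass either (adjusted p = 0.836, 0.224 and 0.346).

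**Figure D4:**
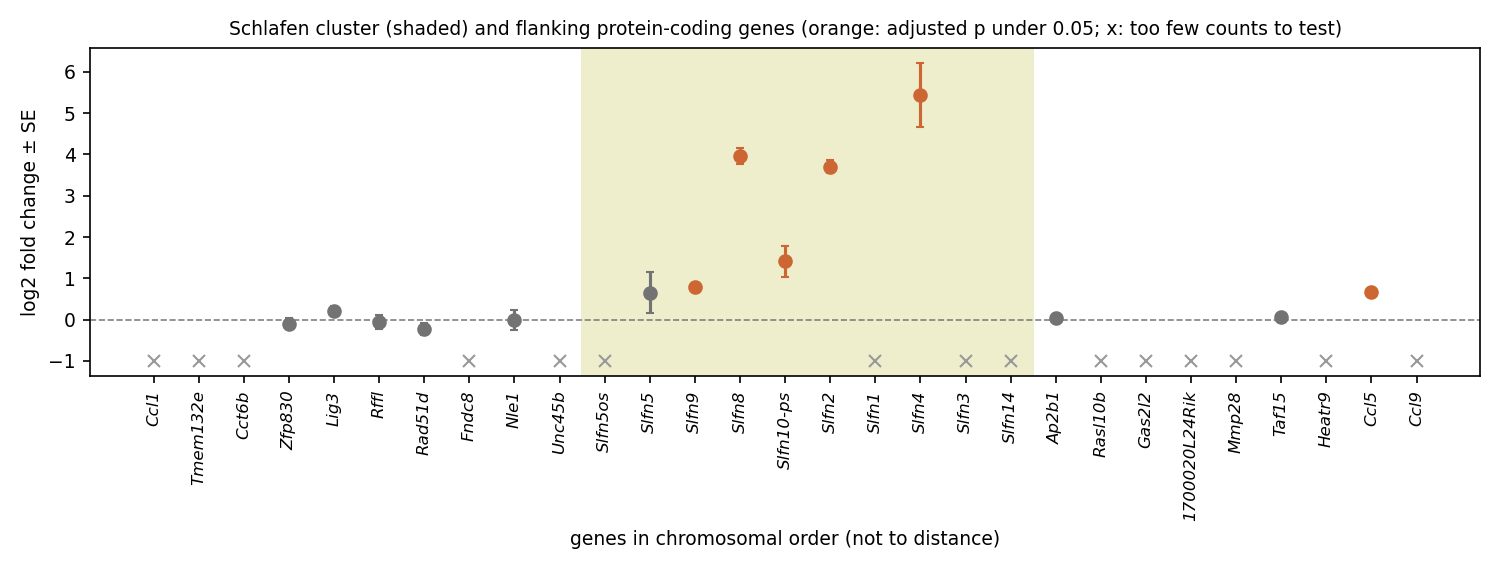
Log2 fold change ± standard error (edgeR) of the Schlafen cluster, shaded, and of 19 of the 20 flanking protein-coding genes, in chromosomal order and not to distance; orange marks an adjusted p under 0.05 and crosses mark genes with too few reads to test. In the shaded cluster Slfn9, Slfn8, Slfn10-ps, Slfn2 and Slfn4 are orange, and outside it only Ccl5 is.

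Genes of IFN-gamma and type I interferon signalling and of its regulation were examined beside the family. Of 20 genes of interferon signalling, 19 were tested, 12 were higher and 0 lower, with a median log2 fold change of 0.47, where 9.88% of all tested genes were higher and 7.56% lower. The transcription factor genes Irf1 and Irf7 were among those with the smallest adjusted p: Irf1 went from 72.9 ± 9.14 to 899 ± 18.8 CPM and Irf7 from 7.97 ± 0.264 to 120 ± 15.2 CPM. Stat2 and Irf9, whose products act together on ISRE elements, were higher by 2.68 ± 0.10 and 1.69 ± 0.07 (edgeR adjusted p = 4.55e-25 and 1.56e-22). The 4 chains of the IFN-gamma and type I interferon receptors gave 1 call, Ifnar2 (0.50 ± 0.08). Interferon genes themselves were barely detected: 10 of 14 listed interferon genes had 0 reads in every library, and all 14 together held at most 0.558 CPM. Ifnb1, the gene of interferon beta, had 0 reads in untreated and 1, 3 and 0 reads in IFN-gamma replicates 1, 2 and 3.

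Since several Schlafen proteins act on tRNA, genes that protect, process or sense the cleavage of tRNA were counted too. Of 21 genes 18 were tested, 3 were higher and 1 lower, with a median log2 fold change of 0.09, and 14 did not pass. These 4 calls among 18 genes are near the 17.4% called over all tested genes. Those that rose included Eif2ak2, the gene of a kinase that senses double-stranded RNA (1.62 ± 0.10, edgeR adjusted p = 3.98e-17), and the tRNA ligase gene Rtcb (0.36 ± 0.08, adjusted p = 0.000739). The gene of the ribosome stress kinase ZAK had a log2 fold change of -0.25 ± 0.08 (adjusted p = 0.0185). It no longer passed when untreated replicate 2 was left out (adjusted p = 0.257), nor when IFN-gamma replicate 1 was (adjusted p = 0.0554). Ang, the gene of angiogenin, the nuclease from which Slfn2 shields tRNAs, stood at 4.42 ± 1.02 and 5.48 ± 0.335 CPM (0.31 ± 0.29, adjusted p = 0.532). Its inhibitor gene Rnh1 stood at 142 ± 11.2 and 155 ± 9.24 CPM (0.12 ± 0.07, adjusted p = 0.276).

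Genes whose profiles over the 6 libraries lay nearest to each Schlafen gene were found by the Euclidean distance between log2 CPM profiles, each set to 0 at the gene's untreated mean. Nearest to Slfn2 were Irf1 (distance 0.321), the chemokine gene Cxcl10 (0.334) and the immunoproteasome gene Psmb10 (0.362). Nearest to Slfn8 were the helicase gene Ddx60 (0.377), Phf11d (0.48) and the antiviral gene Rsad2 (0.509). Nearest to Slfn9 were Gdap10 (0.156), Ankrd1 (0.176) and Aida (0.202), which rose by 0.84, 0.78 and 0.81 on the log2 scale. The nearest gene to Slfn4 lay farther off and was Nos2, the inducible nitric oxide synthase gene, at 1.03. The fitted log2 fold change of Nos2, 3.87 ± 0.41, was smaller than the 5.44 ± 0.78 of Slfn4. With 2 groups these distances reflect mainly the size of the change in profiles that include a prior count of 2, which matters most where reads are few.

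Since Schlafen genes are best known from immune cells, marker genes of such cells were measured in the same libraries. The T and NK cell markers (6 genes) summed to between 0 and 0.104 CPM without treatment and to between 0.223 and 0.465 CPM with it, and the B cell markers (3 genes) to at most 0.279 CPM. Ptprc, the pan-leukocyte gene, had 0 reads in 4 libraries and 1 read in 2, and the lymphocyte markers Cd3g and Ncr1 had 0 reads in all. Of 11 listed myeloid symbols 9 were in the table, and Emr1, which was not, is an older symbol of Adgre1, which was. These 9 summed to between 39.1 and 48.7 CPM untreated and to between 74.6 and 81.4 CPM treated. Most of this was Cd14, which did not pass (0.05 ± 0.12, edgeR adjusted p = 0.838), Cd68 (0.73 ± 0.23, adjusted p = 0.0229) and Mpeg1, which had 2, 0 and 0 reads untreated and 303, 250 and 209 treated. Mpeg1 passed the filter on low counts only through its treated libraries, so its direction was set in advance. Cd68 no longer passed when untreated replicate 1, untreated replicate 2 or IFN-gamma replicate 2 was left out (adjusted p = 0.0615, 0.111 and 0.156). The other 6 myeloid markers in the table had few reads: Itgam, Lyz2, Adgre1, Fcgr1 and Itgax between 0 and 3 in every library, and Csf1r between 0 and 5.

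Total gene counts ranged from 7302687 to 10861336 per library, of which 5.81% to 9.69% fell on Rn45s, the ribosomal RNA precursor. The label of lung adenocarcinoma was checked against 9 lung epithelial markers, which summed to at most 18.2 CPM, most of it Krt19, which was lower after treatment. Epcam, Krt18, Sftpc, Nkx2-1 and Napsa had between 0 and 2 reads in every library, Cdh1 between 0 and 6, Krt7 between 1 and 16 and Krt8 between 2 and 25. The mesenchymal gene Vim stood at 7010 ± 158 CPM in untreated and 4970 ± 250 CPM in treated cells, and 4 of 5 mesenchymal markers were lower, as were 7.56% of all tested genes. The part of these shifts in the Schlafen results was not tested.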

How the data were processed

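Gene counts from 6 RNA-seq libraries of TC-1 cells were used. The counts deposited by the authors are raw whole numbers per gene, and the log2 values deposited by the authors are normalized, per the file headers. The submitters' processing notes name Bowtie2 and edgeR, and the human build hg19 although the samples are mouse, so no coordinates were taken from the table. The labels name 2 library kits for every sample.

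The count test was edgeR's robust quasi-likelihood fit (version 4.0.16, R 4.3.3) after filterByExpr and TMM scaling, with no covariate, Benjamini-Hochberg adjustment over all 12191 genes tested and a threshold of 0.05. The test was tested on simulated data. Alternatives were RLE, upper-quartile and no factors, no filter, DESeq2 1.42.0, limma 3.58.1 on the deposited log2 values, a replicate block, summed rows of related genes and leaving out each library. Intervals are 95%, exact (Clopper-Pearson) for count ratios. The reads carry no molecular identifiers, so these intervals and floors of 3 counts cover counting error only. Within-library ratios used log2(count + 0.5).

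Promoters came from RefSeq (GRCm38.p6) and transcripts from GENCODE. Identity was computed over global alignments (Biopython 1.88). Named were all members, in each list the 3 smallest adjusted p and the largest opposite change, and the 3 nearest profiles (log2 CPM, prior count 2) of each member that passed. Further list genes were chosen after their values were seen, and some genes that the rule would name are not reported here. Members and lists were chosen with earlier results of these data known.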

Additional observations from a re-analysis of the deposited data

How the results depend on the processing

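The number of Schlafen genes that passed, 4, was the same under every alternative run. So were the side of the threshold and the direction of Slfn2, Slfn4, Slfn5, Slfn8 and Slfn9. Slfn4, 1 of these 4, passed the filter on low counts only through its treated libraries. Its direction was thus set in advance, and its call adds nothing to the count. Leaving out 1 library at a time, the log2 fold change ranged from 3.63 to 3.75 for Slfn2, from 3.75 to 4.14 for Slfn8, from 0.74 to 0.87 for Slfn9, from 0.28 to 0.96 for Slfn5 (edgeR adjusted p from 0.226 to 0.842) and from 4.89 to 8.13 for Slfn4, which had 2 untreated reads. Limma on the deposited log2 values gave 4.36 for Slfn4 and DESeq2 gave 5.68. In these fits the number of tRNA genes that were lower ranged from 0 to 1, where the main fit had 7.56% of all tested genes lower. The number of myeloid markers that were higher ranged from 1 to 2, with 3 tested in the main fit. In that fit 9.88% of all tested genes were higher. Mpeg1, whose direction was set by the filter on low counts, is in this myeloid count. Deviations of same-numbered libraries from their group means correlated only weakly, at 0.00283, 0.0411 and -0.00139. With 3 libraries per group, these values cannot show that the samples were unpaired. With a replicate block, 4 Schlafen genes were higher. In all, 1252 genes were higher and 974 lower with the block, against 1204 and 922 without it. Depth limits Slfn1 and Slfn3, which had too few reads to be tested.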
